A study of Mus musculus with 36 samples.

Results

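The 10 genes described here are switched on by cells within minutes of a stimulus, and were followed through the developing and adult mouse heart. They are 3 zinc finger factors (Egr1, Egr2 and Egr3), 3 orphan nuclear receptors (Nr4a1, Nr4a2 and Nr4a3), 3 subunits of the AP-1 factor (Fos, Fosb and Jun) and the stress-induced factor Atf3. All rows of the deposited table whose symbol was one of these names were taken, which gave 20 probe sets (sets of short probes read as 1 value) for 10 of 20701 genes and 45101 probe sets. The genes were chosen by name with earlier results on these arrays in view, among them their levels in the single adult arrays, so adult values are given as a description with no test. Hearts of OF1 mice, an outbred stock, to which the labels give no genetic modification or treatment, were collected daily from E10.5 to E19.5 and from young (10 weeks) and old adults, with 3 arrays at each of 12 stages. The old animals are 14 months old in the series design, and the study's methods give a younger age. At E10.5 and E11.5 all 3 arrays (mf1, mf2 and mf3) held mixed males and females, and from E12.5 on each stage had a female, a male and a mixed array. Each sex therefore has a single array per stage, and the mixed array pools hearts of both.

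Immediate early genes need no new protein for their induction. Kinase cascades, calcium and cyclic AMP act on factors that are already present, such as SRF with its ELK partners at CArG boxes and CREB at cyclic AMP response elements, and transcription starts within minutes. Most of the transcripts are short-lived, and the proteins then bind DNA and change slower genes. In the heart these genes are known for their response to stretch, adrenergic drive, growth factors and injury, and in any tissue the same genes can respond to dissection and dissociation.

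The promoters of Fos, Egr2, Nr4a1 and Atf3 are shown because these members represent the families and, as described below, moved together from array to array or stood apart in the old hearts. Each run holds the 250 bases before the RefSeq transcript start (GRCm38.p6), 5′ to 3′ on the gene's strand, and capitals mark TGACG or its reverse complement CGTCA (the core of a cyclic AMP response element), TATAAA, and the CArG box. The windows lie at chr12:85473640-85473889 (Fos, plus strand), chr10:67537619-67537868 (Egr2, plus strand, 1 of its RefSeq starts), chr15:101266596-101266845 (Nr4a1, plus strand) and chr1:191183334-191183583 (Atf3, minus strand).
Fos: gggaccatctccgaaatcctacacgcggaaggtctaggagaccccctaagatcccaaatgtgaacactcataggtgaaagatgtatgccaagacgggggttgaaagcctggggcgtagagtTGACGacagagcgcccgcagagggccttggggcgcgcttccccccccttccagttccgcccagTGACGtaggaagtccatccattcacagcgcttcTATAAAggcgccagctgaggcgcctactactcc
Egr2: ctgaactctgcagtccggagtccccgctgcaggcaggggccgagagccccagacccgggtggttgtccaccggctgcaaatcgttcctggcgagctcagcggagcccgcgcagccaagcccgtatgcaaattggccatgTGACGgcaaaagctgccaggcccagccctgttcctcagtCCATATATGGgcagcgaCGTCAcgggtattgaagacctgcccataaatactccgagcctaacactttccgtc
Nr4a1: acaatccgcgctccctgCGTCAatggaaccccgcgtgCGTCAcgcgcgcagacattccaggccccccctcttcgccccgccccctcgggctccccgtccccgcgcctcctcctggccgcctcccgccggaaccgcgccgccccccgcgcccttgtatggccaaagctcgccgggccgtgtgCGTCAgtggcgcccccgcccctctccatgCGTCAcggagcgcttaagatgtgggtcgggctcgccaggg
Atf3: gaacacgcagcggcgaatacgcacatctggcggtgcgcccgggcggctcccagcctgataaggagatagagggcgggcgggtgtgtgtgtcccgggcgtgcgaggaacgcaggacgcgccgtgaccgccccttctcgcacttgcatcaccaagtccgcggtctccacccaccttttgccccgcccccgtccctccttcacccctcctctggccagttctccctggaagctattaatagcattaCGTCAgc
In the Fos window TGACG lay 129 and 66 bases before the start, and TATAAA lay 33 bases before it. The Egr2 window held a CArG box 72 bases before the start, between TGACG at 111 bases and its reverse complement at 55. Nr4a1 held the reverse complement at 4 places, and Atf3 held it 7 bases before the start. Promoters of 8 members could be searched on both strands, and 7 of them (all but Jun) held TGACG in at least 1 listed promoter, against 19.8% of 27025 genes. None of the 8 held the whole palindrome TGACGTCA, of which TGACG is the first part (1.77% of genes), the AP-1 site TGACTCA (5.16%), the NR4A site AAAGGTCA (1.55%) or the EGR site GCGTGGGCG (0.62%) in these windows. A CArG box was in the Egr2 window alone (1.62% of genes), and TATAAA was in those of Fos and Nr4a2 (14.3%). Egr1 and Egr3 are named only.

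Values are log2 intensities after robust multi-array averaging (RMA), on which a difference of 1 is a 2-fold change, and levels are compared only within a probe set. A gene was read from its probe set with the highest mean over all 36 arrays, and the other probe sets are given where they differed. Array medians lay between 4 and 4.2. Cardiac muscle genes averaged 10.3 to 11.6 in the embryonic arrays and a list of liver genes 3.02 to 3.76, which bears on the extraction protocol in the labels, since it names liver. In whole hearts, fewer cells of a type and less RNA per cell cannot be told apart. The hybridization controls, bacterial transcripts added at fixed amounts, ran from 9.68 to 12.0 in embryonic arrays.

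Most of these genes differed widely between arrays of the same stage. Fos, which pairs with Jun proteins to form AP-1, read 9.53, 11.2 and 10.9 in the 3 arrays of E10.5 and 11.3, 11.5 and 9.10 in those of E11.5. At E12.5 the female, male and mixed arrays read 11.7, 11.8 and 11.8. At E13.5 the female and male arrays read 9.14 and 9.17 and the mixed array 11.3. At E15.5 the mixed array was the low one, with 7.10 against 10.5 and 10.1 in the female and male arrays. So it was at E16.5, with 6.31 against 10.9 and 10.6. At E17.5 the sexes read 6.70 and 6.59 and the mixed array 9.91, and E18.5 gave 8.05, 7.08 and 9.27. E14.5 (8.73, 7.45 and 8.91) and E19.5 (9.61, 9.18 and 8.11) had smaller gaps. The SD between Fos arrays was thus 0.06 at E12.5 and 2.57 at E16.5.

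**Figure D1:**
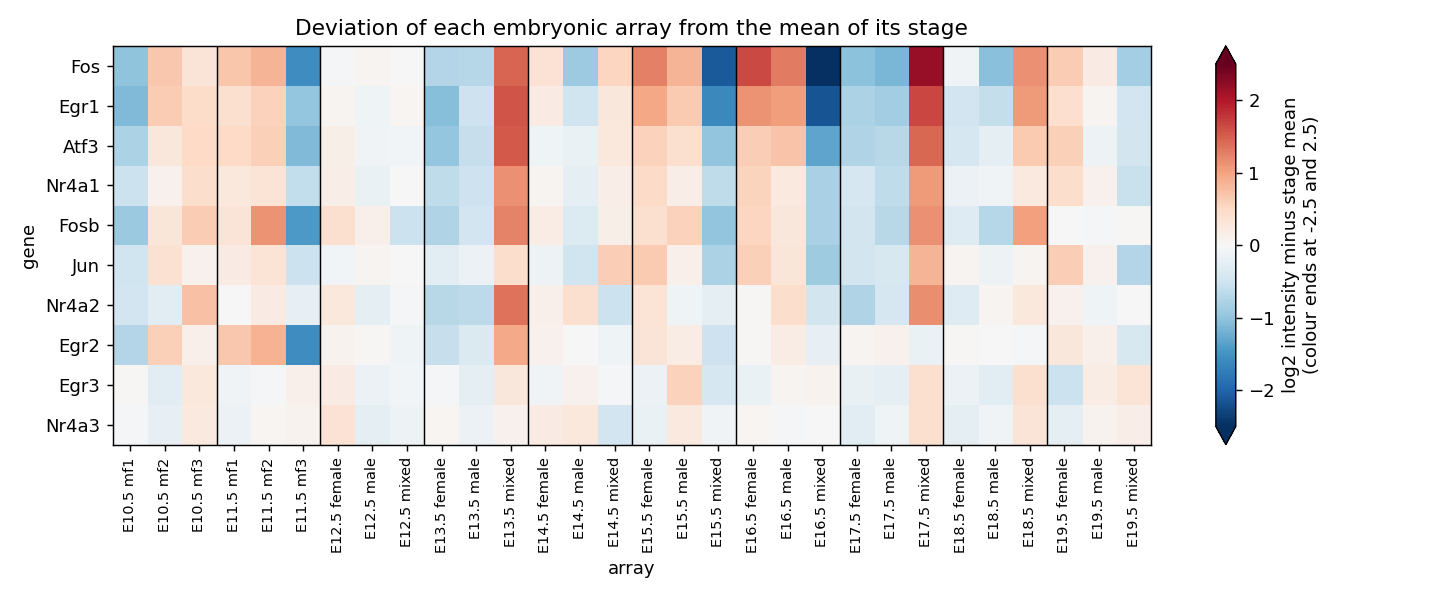
Deviation of each of the 30 embryonic arrays (columns, 3 per stage) from the mean of its stage for the 10 genes (rows, read probe sets), as a colour on the log2 scale. Columns such as E13.5 mixed and E17.5 mixed are high, and E11.5 mf3, E15.5 mixed and E16.5 mixed low, across most rows, while Egr3 and Nr4a3 are pale.

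Most other members followed the same arrays, while Egr3 and Nr4a3 did so weakly on their read probe sets. Egr1, a factor that represses and activates growth genes, read 8.83, 9.37 and 11.5 at E13.5 and 10.7, 10.6 and 7.37 at E16.5 in the female, male and mixed arrays. Nr4a1 read 7.27, 7.39 and 9.04 at E13.5 and 8.82, 8.52 and 7.46 at E16.5. Atf3, which belongs to the CREB and ATF family, read 6.35, 6.74 and 8.84 and then 7.88, 7.98 and 5.94. In all of these the mixed array lay outside the female and male values, above them at E13.5 and below them at E16.5. Fosb, a close relative of Fos, read 3.62, 3.89 and 5.62 at E13.5 and 4.30, 4.05 and 2.96 at E16.5. Jun, the partner of Fos, moved less, with 7.50, 7.64 and 8.23 at E13.5 and 7.99, 7.70 and 6.50 at E16.5.

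Counting Fos itself, the array that was highest for Fos was highest for 10 of 10 members at E13.5, 9 at E17.5, 8 at E11.5 and E18.5 and 7 at E15.5 and E19.5. It was highest for 6 at E16.5, 5 at E14.5, 4 at E10.5 and 2 at E12.5. The share of all probe sets highest in the same array was not counted. These counts therefore do not show how far the order is particular to the members. Egr2 read 2.63, 2.66 and 2.39 in the female, male and mixed arrays of E17.5, so its lowest array there was the highest for Fos. These are low signals. In every array from E14.5 to E19.5 Egr2 lay below the array medians of 4 to 4.2. As a description over the 30 embryonic arrays, which share their stages and their normalisation, the stage-centred values (an array's value minus the mean of its stage) of Egr1 and Fos correlated with r = 0.98 and those of Nr4a1 and Atf3 with r = 0.97. Against the mean of the other 9 members, r was 0.98 for Atf3, 0.97 for Egr1, 0.96 for Nr4a1, 0.92 for Fos and for Fosb, 0.83 for Jun, 0.73 for Nr4a2 and 0.61 for Egr2. It was 0.33 for Egr3 and 0.27 for Nr4a3 on their read probe sets. The other, less intense Egr3 probe set had r = 0.59, and the second most intense of the 3 Nr4a3 probe sets had 0.46.

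By the SD between arrays of a stage, pooled over the 10 embryonic stages, Fos (1.42) ranked 7, Egr1 (1.11) ranked 15, Atf3 (0.86) ranked 24 and Fosb (0.83) ranked 27 among 45101 probe sets. Above Fos stood the sex-linked genes Xist, Eif2s3y and Ddx3y and 1 probe set without a symbol. On the read probe sets, 8 of the 10 members lay within the highest 1% of probe sets, and the median SD over all probe sets was 0.21. The genes were chosen with earlier results on these arrays in view, so these ranks and this count are a description only. The second Jun probe set ranked 809, and the other 5 Nr4a2 probe sets ranked from 1954 to 32356, all outside the highest 1%. The other Egr3 probe set ranked 314, inside it. The SD was 0.60 for Nr4a1 and Nr4a2, 0.58 for Egr2 and 0.55 for Jun on the read probe sets. It was 0.31 for Egr3 and 0.26 for Nr4a3, whose arrays never differed by over 1 within an embryonic stage. Among probe sets whose embryonic mean lay within 0.5 of its own, each of the 8 had a higher SD than at least 98.5% of the others. The 8 were picked by this same SD, so a high share was to be foreseen and nothing is read from it. The share was 84.6% for Egr3 and 63.9% for Nr4a3.

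For most members the mixed array lay farther from the sexes than these lay from each other. From E12.5 to E19.5 the distance of the mixed array from the mean of the female and male arrays was larger than the distance between the sexes in 6 of 8 stages for Egr1, Nr4a1, Fos, Fosb, Jun and Atf3 and in 8 of 8 for Egr2. It was in 5 for Nr4a2 and in 3 for Egr3 and Nr4a3. The Egr2 count rests largely on low signals, since Egr2 lay below the array medians from E14.5 on. Over all probe sets the share for which this held ran from 33.6% at E12.5 to 64.8% at E18.5. For Fos the signed distance ran from -4.44 at E16.5 to 3.26 at E17.5, and between the sexes it was never over 1.28 in size. The direction was not constant, since the mixed array was higher in 4 of 8 stages for Fos, Nr4a1, Jun and Atf3.

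The genes whose pattern was most like that of the members included 7 companion genes (defined below) among the first 10 and 16 among the first 40. Here each gene was taken at its probe set with the highest r, not the most intense one. Among 9489 other genes with a mean above 5 in the embryonic arrays, the highest r with the mean of the 10 members was that of Socs3, a feedback inhibitor of cytokine signalling (0.975). It was followed by Stat3, the cytokine-activated factor that induces Socs3 (0.968), Ier2 (0.951), the growth arrest gene Gadd45g (0.94), Zfp36, which degrades AU-rich mRNAs (0.922), Ppp1r15a (0.914), Klf4 (0.908), the NF-kB modulator Nfkbiz (0.907), the nuclear RNA Malat1 (0.904) and the antiproliferative gene Btg2 (0.901, and 0.87 on its most intense probe set). The median r over all probe sets was 0.071, and 0.126% of them exceeded 0.8. Of the 62 companion genes (upstream regulators, AP-1 and EGR partners, other immediate early genes, feedback inhibitors and effectors) 11, or 17.7%, exceeded 0.8 on their read probe sets. Socs3 had an SD of 1.32 within stages and Junb, another AP-1 subunit, 0.87 with r = 0.96. Among the 7 companion genes listed as upstream regulators, r was 0.54 for Mkl1, 0.42 for Elk1, -0.01 for Elk4 and -0.02 for Srf. It was -0.32 for Elk3, -0.44 for Crem and -0.59 for Creb1. Marker lists moved with the member mean as well: r was -0.72 for the 4 brown adipocyte genes, -0.65 for 6 cardiac muscle genes, -0.48 for skeletal muscle and 0.50 for erythroid genes. Only 1 of the 4 brown adipocyte genes was above 5 in any embryonic array, so that list is no reading of brown fat cells. All 6 cardiac muscle genes, 4 of 7 skeletal muscle genes and 3 of 5 erythroid genes were. The part of these lists in the pattern was not tested.

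The hybridization controls moved with some members too. Over 30 relations of 10 members to 3 control measures, 3 passed an adjusted p of 0.05. With the hybridization control level, stage-centred Nr4a2 had r = 0.78 and rho = 0.79 (permutation within stages, p = 0.00021 and 0.00025, adjusted 0.00315 and 0.00375), Nr4a3 r = 0.77 and rho = 0.78 (permutation p = 9e-05 and 5e-05, adjusted 0.0027 and 0.0015) and Egr3 r = 0.69 and rho = 0.66 (permutation p = 0.00042 and 0.00183, adjusted 0.0042 and 0.0183). Without the 2 arrays farthest from the median of the control, r was 0.75, 0.68 and 0.57. Values were lower for Fos, Egr1 and Jun, with r = 0.48 and rho = 0.47 for Fos (permutation p = 0.0542 and 0.0429, adjusted 0.203 and 0.161), r = 0.58 and rho = 0.58 for Egr1 (permutation p = 0.0151 and 0.0125, adjusted 0.0753 and 0.0623) and r = 0.23 and rho = 0.22 for Jun (permutation p = 0.335 for each, adjusted 0.717 and 0.646). Fosb passed by rho alone (r = 0.55, rho = 0.59, permutation p = 0.0128 and 0.00664, adjusted 0.0753 and 0.0498). None of the 10 passed with the difference between the 5′ and 3′ probe sets of Gapdh or beta-actin, a sign of RNA length, where r ran from -0.32 to 0.36 and the lowest adjusted p of r was 0.283 (Jun with beta-actin, permutation p = 0.0848, rho = 0.38 with adjusted p = 0.264). Without the 2 farthest arrays, Nr4a3 passed with beta-actin (r = -0.64, permutation, adjusted p = 0.0415).

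**Figure D2:**
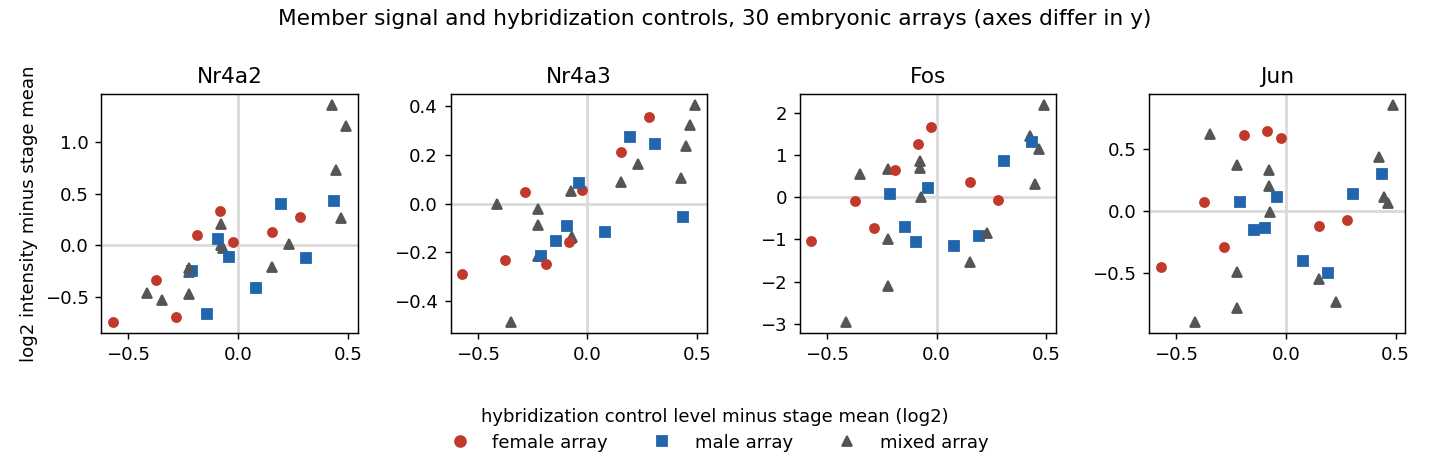
Stage-centred log2 intensity (y, its own scale in each panel) of Nr4a2, Nr4a3, Fos and Jun against the stage-centred hybridization control level (x, log2) in the 30 embryonic arrays, with shapes for female, male and mixed arrays (mf1 to mf3 drawn as mixed). Nr4a2 and Nr4a3 rise from left to right (r = 0.78 and 0.77), and Jun spreads over the panel (r = 0.23).

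Across embryonic stages 7 members peaked at E12.5 in their stage mean: Fos, Fosb, Jun, Egr1, Egr2, Nr4a1 and Atf3. The share of all probe sets that peak there was not counted, so nothing is read from this count. The stage mean of Fos was 11.8 ± 0.06 (SD, n = 3) at E12.5, 10.6 ± 1.34 at E11.5 and 7.74 ± 1.89 at E17.5, its lowest. The 3 E12.5 arrays lay above every other embryonic array for Fos (lowest 11.7, against 11.5) and for Jun (lowest 8.32, against 8.29). On the other Jun probe set they did not, with 6.85 in the E12.5 female array and 6.88 in E11.5 mf1. Of all probe sets 0.339% did so at E12.5. This stage was picked for its high means, so nothing is read from that share. Egr1 was 11.3 ± 0.10 at E12.5 and 8.60 ± 0.42 at E14.5, Fosb 6.45 ± 0.48 at E12.5 and 2.93 ± 0.04 at E19.5, and Atf3 8.75 ± 0.13 and 6.0 ± 0.54 at the same stages. Below E12.5, neighbours in the order of the Fos means (E11.5, E10.5, E13.5, E16.5, E15.5, E19.5, E14.5, E18.5, E17.5) differed by less than their SDs. In a limma F test over the 10 stages 7 members passed an adjusted p of 0.05, against 50.9% of probe sets: Fosb (9.58e-05), Egr2 (0.00151), Atf3 (0.0116), Nr4a3 (0.021), Fos (0.0251), Jun (0.0366) and Egr3 (0.0448). Egr1 (0.078), Nr4a1 (0.335) and Nr4a2 (0.384) did not. Egr2 was a low signal from E14.5 on. Without the male or the mixed array of E12.5 the count was 3, and without E10.5 mf2 it was 4.

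By a linear slope, levels fell with embryonic day for most of these genes, but the fall was not even. The stage mean of Fos was 11.8 at E12.5, 8.36 at E14.5 and 8.97 at E19.5. From E14.5 to E19.5 the mean of Egr1 went from 8.60 to 9.26 and that of Jun from 6.86 to 7.13. Over the same days Fosb went from 3.19 to 2.93, Atf3 from 6.32 to 6.0 and Egr2 from 2.96 to 2.78. By limma slopes over the 30 arrays 6 of 10 members were lower with day (25.4% of probe sets). Fosb fell by 0.321 per day on the log2 scale (SE 0.057, adjusted p = 1.71e-05), Fos by 0.320 (SE 0.084, adjusted p = 0.00158), Atf3 by 0.213 (SE 0.053, adjusted p = 0.000905) and Egr1 by 0.203 (SE 0.065, adjusted p = 0.00776). Egr2, a low signal from E14.5 on, fell by 0.164 (adjusted p = 0.000708) and Jun by 0.116 (adjusted p = 0.00347). The 2 members with a higher level at later days (42.1% of probe sets) were Egr3 (0.077, SE 0.018, adjusted p = 0.000519) and Nr4a3 (0.070, SE 0.016, adjusted p = 0.000391) on their read probe sets, while Nr4a1 (-0.042, adjusted p = 0.286) and Nr4a2 (0.034, adjusted p = 0.384) did not pass. The other Nr4a2 probe sets went both ways, with 2 falling by 0.075 (adjusted p = 0.00482) and 0.082 (adjusted p = 0.00414), 2 rising by 0.076 (adjusted p = 1.42e-05) and 0.027 (adjusted p = 0.039) and 1 not passing (0.012, adjusted p = 0.427). The other Egr3 probe set fell by 0.12 per day (adjusted p = 0.0171), so the direction for Egr3 depended on the probe set. With the hybridization control level as a term, no member rose in limma (0 at an unadjusted p under 0.05), the slope per day of Egr3 was 0.00441 and the slope per day of Nr4a3 was -0.00386. The control level was itself higher at later stages, with a mean of 9.9 at E10.5 and 11.2 at E19.5. This term and day cannot be fully separated, so a loss of rises was to be foreseen. Among the 20 embryonic arrays whose titles lack a prefix (E10.5 to part of E16.5) 2 members rose and 6 fell, and among the 10 later arrays with it none passed in limma (2 fell and 0 rose at an unadjusted p under 0.05).

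**Figure D3:**
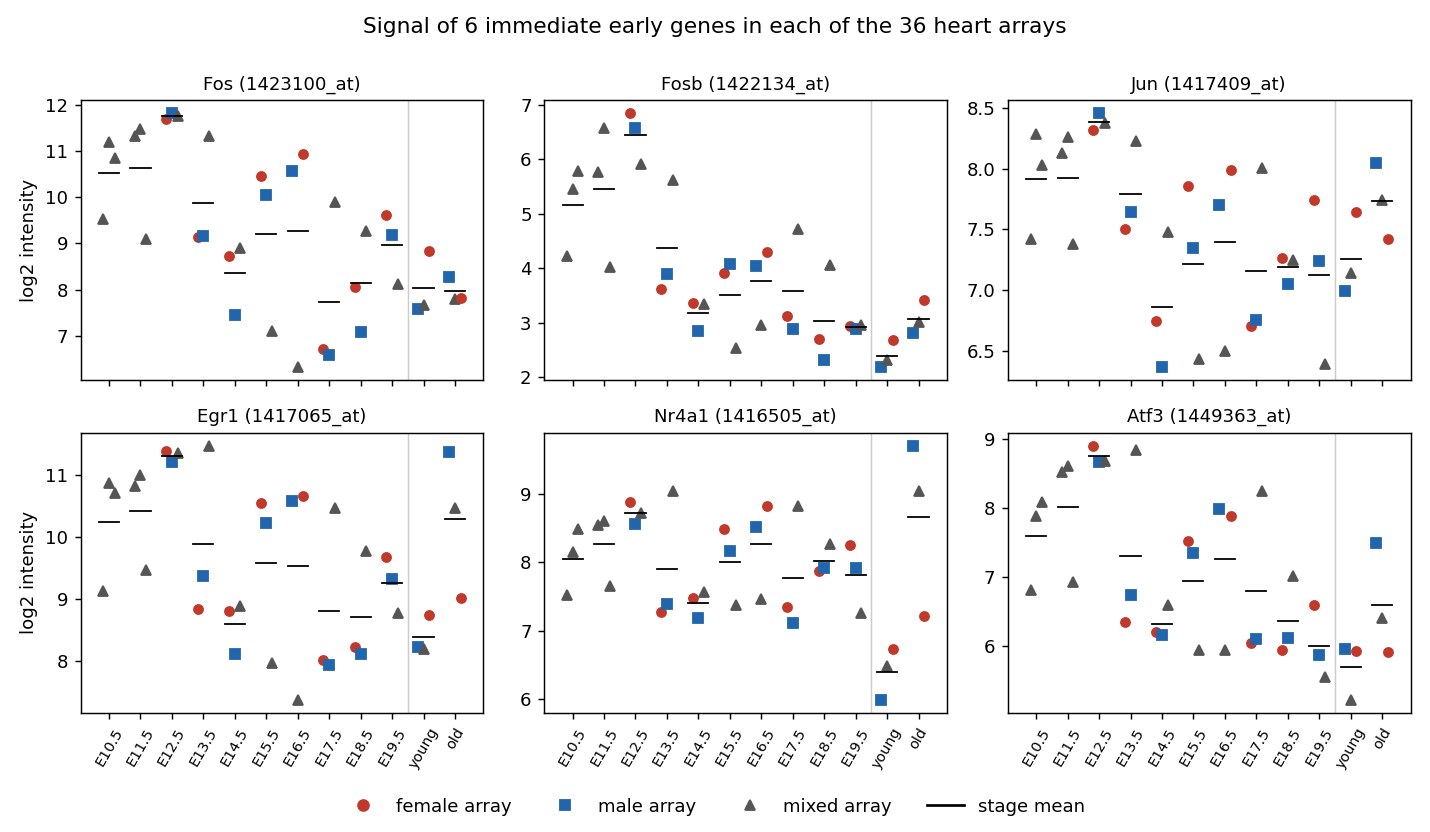
Log2 intensity (y) of Fos, Fosb, Jun, Egr1, Nr4a1 and Atf3 in each of the 36 arrays by stage (x, adults right of the line), with shapes for female, male and mixed arrays (mf1 to mf3 drawn as mixed) and a bar at each stage mean. For Fos the E12.5 arrays sit together at 11.7 to 11.8, while those of E16.5 run from 6.31 to 10.9.

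Between the ends of the series, E19.5 against E10.5, 2 members were lower (22.6% of probe sets) and 2 higher (26.3%). Fosb fell by 2.23 (SE 0.598, adjusted p = 0.00354) from 4.23, 5.45 and 5.78 in the E10.5 arrays to 2.94, 2.88 and 2.96 in the female, male and mixed E19.5 arrays. These E19.5 values lay below the array medians of 4 to 4.2, so they are low signals. Atf3 fell by 1.59 (SE 0.619, adjusted p = 0.0358) from 6.81, 7.88 and 8.09 to 6.59, 5.87 and 5.55. This call was lost with the sex label as a replicate block, the title prefix as a term, median centring or quantile renormalization, and without E10.5 mf2, E10.5 mf3, E19.5 male or E19.5 mixed. The Fosb call was lost with the title prefix as a term. Only E16.5 holds arrays with and without the prefix, so in that fit the prefix effect is estimated from E16.5 alone. E19.5 minus E10.5 can then hardly be separated from the prefix, and a loss of calls under this term was to be foreseen. Egr3 (0.72, SE 0.234, adjusted p = 0.0134) and Nr4a3 (0.57, SE 0.199, adjusted p = 0.0212) were higher. Neither call held with the title prefix as a term or without E10.5 mf2, E19.5 male or E19.5 mixed, that of Nr4a3 was also lost without E10.5 mf1, and the other Egr3 probe set gave -0.15 (adjusted p = 0.759). With the hybridization control level as a term, E19.5 minus E10.5 of Egr3 was -0.0404 and E19.5 minus E10.5 of Nr4a3 was -0.143. The control level ran from 9.68 to 10.35 in the E10.5 arrays and from 10.97 to 11.39 in the E19.5 arrays. Stage and control level therefore cannot be fully separated here. For Fos the difference was -1.56 (SE 1.01, adjusted p = 0.198) and for Egr1 -0.97 (SE 0.795, adjusted p = 0.308), and neither passed in limma. None of the 10 passed the limits the study used (adjusted p of 1e-05, a difference of 2 and a stage mean above 5), which 2.16% of probe sets passed.

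Male and female embryos were compared in 7 pairs from E13.5 to E19.5. None of the 10 members passed an adjusted p of 0.05 in limma with stage as a block (0.0687% of probe sets did), and 3 were at an unadjusted p under 0.05, as were 4861 of all probe sets. Fos was lower in the male array in 6 of 7 pairs, by 0.50 on average (SE 0.127, adjusted p = 0.226). Jun (-0.24, adjusted p = 0.381) and Nr4a1 (-0.19, adjusted p = 0.441) were lower in 5 of 7. Egr1 was lower in 6 of 7 pairs (-0.15, SE 0.111, adjusted p = 0.625).

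In the old adult arrays Egr1, Egr2 and Nr4a1 were higher in the male and mixed arrays than in the female array. The old female array in turn lay above all young adult arrays for these genes. In the young adult female, male and mixed arrays Nr4a1 read 6.73, 5.99 and 6.48, below all 30 embryonic arrays, whose lowest was 7.12. In the old adult arrays it read 7.22, 9.70 and 9.04. Egr1 read 8.74, 8.22 and 8.19 in the young and 9.02, 11.4 and 10.5 in the old arrays. Egr2, known in nerve sheath and immune cells, read 2.84, 2.85 and 2.61 in the young and 3.15, 7.76 and 5.73 in the old arrays. The old male and mixed arrays lay above all embryonic arrays for Egr2, whose highest was 4.98.

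Egr3 and the NR4A genes showed how far the reading depended on the probe set. The less intense Egr3 probe set read 3.6, 4.92 and 4.05 in the young and 3.71, 9.71 and 8.78 in the old female, male and mixed arrays, a male minus female difference of 5.99. On the more intense one the old arrays read 4.97, 4.46 and 5.04, with a difference of -0.51. The second most intense Nr4a3 probe set read 4.73, 7.73 and 6.84 in the old arrays (difference 3.0) and the most intense one 5.11, 4.92 and 5.35 (-0.20). For Nr4a2 the old arrays read 5.69, 7.25 and 7.67 on the most intense of 6 probe sets, and 5.69, 5.61 and 5.82 on another. On the rest they read 4.04, 6.66 and 6.59, then 4.38, 5.17 and 5.0, then 3.0, 3.99 and 4.06, and 4.35, 4.43 and 4.58. Each of these genes thus had a probe set on which the old male and mixed arrays were high and another on which the 3 arrays lay close.

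Fos and Fosb did not stand out in the old arrays. Fos read 8.84, 7.58 and 7.67 in the young and 7.82, 8.28 and 7.80 in the old female, male and mixed arrays, and Fosb read 2.69, 2.18 and 2.32 and then 3.41, 2.81 and 3.01. Jun read 7.42, 8.05 and 7.74 and Atf3 5.91, 7.49 and 6.4 in the old arrays. Old male minus old female was above 1 for 5 of 10 members on the read probe sets (Egr1, Egr2, Nr4a1, Nr4a2 and Atf3), against 1.73% of all probe sets, and below -1 for none, against 1.05%. These arrays were in view when the genes were chosen, so nothing is read from these counts. From the highest of 45101 probe sets, the difference ranked 5 for Egr2, 3 for the less intense and 41162 for the read Egr3 probe set, 31856 for the read Nr4a3 probe set and 42460 for Fosb. The difference of old from young means was 2.78 for Egr2, 2.25 for Nr4a1, 1.90 for Egr1, 0.90 for Atf3 and -0.06 for Fos, with SDs within the old stage of 2.31, 1.28, 1.19, 0.81 and 0.27.

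**Figure D4:**
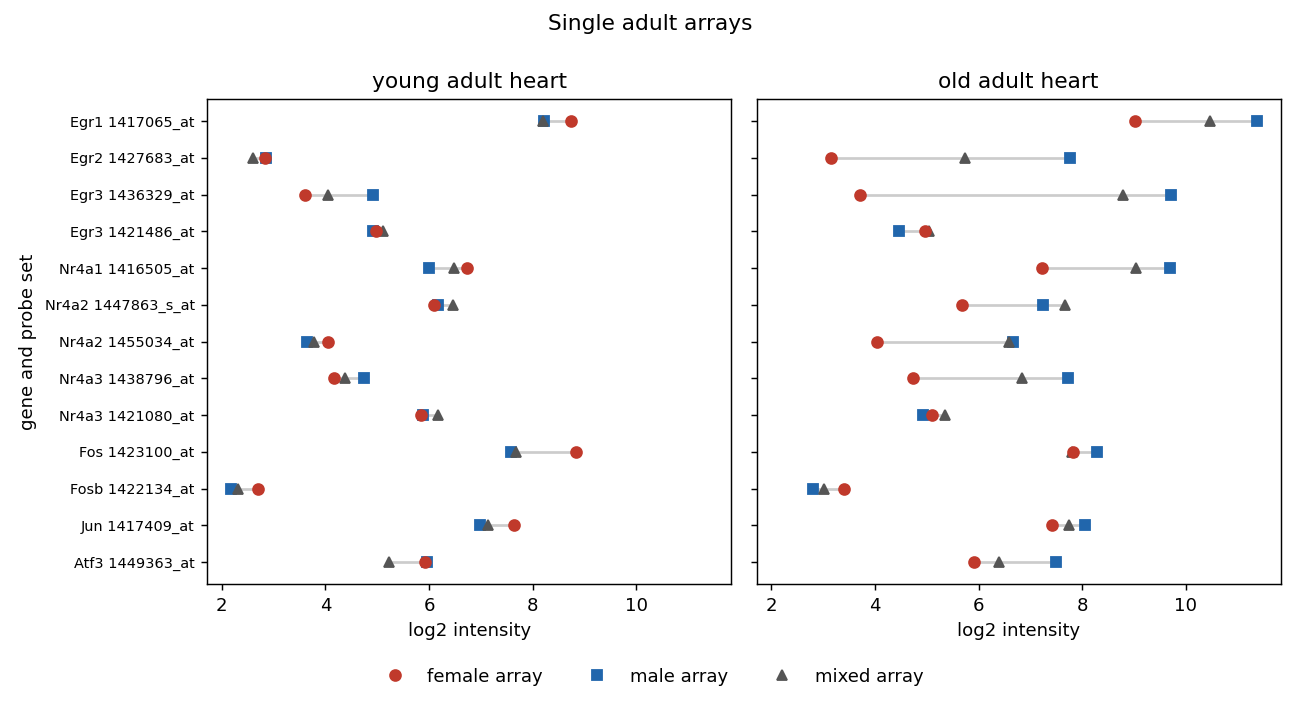
Log2 intensity (x) in the single female, male and mixed arrays of young (left) and old (right) adult heart for 13 member probe sets (rows), with a grey line from the lowest to the highest array. In the old heart the less intense Egr3 probe set runs from 3.71 to 9.71, while Fos stays between 7.80 and 8.28.

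Other values differed between the old arrays too. Cardiac muscle genes averaged 11.4, 11.9 and 11.1 in the old female, male and mixed arrays and adipocyte genes 5.10, 3.55 and 4.25. Erythroid genes averaged 6.54 in the mixed array against 4.33 and 4.20, with the haemoglobin chaperone Ahsp at 9.87 in the mixed array. Endothelial genes averaged 7.47, 7.66 and 8.16 and macrophage and leukocyte genes 8.09, 7.45 and 7.43. The hybridization control level was 11.4, 11.2 and 11.6 in the old arrays and 12.1, 12.4 and 12.0 in the young ones. The part of these in the member values was not tested.

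The companion genes were listed from general knowledge of immediate early responses, with earlier results on these arrays known, so their counts are not independent evidence of the members' pattern. With embryonic day, 20 of 62 (32.3%) were lower and 11 (17.7%) higher, with a median slope of -0.029, against 25.4% and 42.1% of probe sets and a median of 0.019. Of the 12 feedback inhibitors 6 fell and 3 rose, of the 10 AP-1 partners 4 fell and 2 rose, and of the 7 upstream regulators 3 fell and 1 rose. The MAP kinase phosphatases Dusp4 (-0.325, adjusted p = 1.86e-09) and Dusp6 (-0.197, adjusted p = 1.32e-07) and the AP-1 partner Atf2 (-0.169, adjusted p = 1.45e-07) fell most, and the kinase Sgk1 (0.198), the matrix protein Cyr61 (0.142) and the clock gene Per1 (0.134) rose most. Of the 4 Cyr61 probe sets 2 rose and 2 fell, so its direction rests on the probe set read. The balance turned under other scalings, with 22 higher and 11 lower under median centring and 14 higher and 12 lower under quantile renormalization. With the hybridization control level as a term 12 fell and 6 rose. The control level was itself higher at later stages, so this term and day cannot be fully separated.

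From E19.5 to young adult 10 companion genes (16.1%) rose and 9 (14.5%) fell, near the background of 13.6% and 15.5%. The acute phase factor Cebpd rose by 3.13 (SE 0.38, adjusted p = 1.03e-07) and Klf4 by 1.16 (adjusted p = 0.0145). Gadd45g fell by 1.48 (adjusted p = 0.00218), Cyr61 by 1.36 (adjusted p = 0.00568) and the synaptic scaffold Homer1 by 1.10 (adjusted p = 0.00113). Centring each array on its median changed these counts to 17 and 4.

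From young to old adult 19 companion genes (30.6%) were higher, against 3.83% of probe sets, and none was lower in limma, against 3.13%, with 0 lower at an unadjusted p under 0.05. Their median difference was 0.70, against -0.019 over all probe sets. The AP-1 subunit Fosl2 rose by 1.97 (SE 0.276, adjusted p = 5.82e-05) and Ptgs2, the inducible prostaglandin synthase, by 1.97 (SE 0.419, adjusted p = 0.00409). Fosl2 read 5.73, 5.72 and 6.10 in the young and 6.79, 8.52 and 8.16 in the old female, male and mixed arrays, but its other probe set differed by -0.04 (adjusted p = 0.919). Old male minus old female, from 1 array of each sex, was above 1 for 20 of the 62 and below -1 for none, against 1.73% and 1.05% of all probe sets. These counts rested on single arrays and on the spread of all stages: 7 were higher without the old male array, 12 without the old mixed array, 12 and 11 without the young male and mixed arrays, and 0 in a fit of the 6 adult arrays alone (33 at an unadjusted p under 0.05).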

How the data were processed

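Total RNA of OF1 mouse hearts was hybridised to Affymetrix whole-genome mouse arrays, 36 in all. The authors deposited a table of log2 intensities with annotation. Per the labels, the processing notes name Affymetrix Expression Console, Partek 6.6 and RMA (background correction, quantile normalisation and summary of probes), a process that brings arrays to a common distribution and can shift genes when most of a sample changes. Depth does not apply to arrays, and 3 arrays per stage limit the precision. The arrays are biological replicates per the study's methods. Of the symbols, 95 were restored from the gene ID and RefSeq.

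All 45101 probe sets were fitted with limma 3.58.1 in R 4.3.3, with Benjamini-Hochberg adjustment over all of them: an F test over 10 embryonic stages, a slope per day and E19.5 minus E10.5 (30 arrays), male minus female with stage as a block (7 pairs), and adult contrasts in a fit of 12 stages. The adult contrasts were tested for companion genes only. Fits were checked on simulated data. Relations to array controls used 100000 permutations within stages, over 18 hybridization control probe sets for the level (Python 3.11.15, SciPy 1.17.1). Members, lists and tests were chosen with earlier results of these data known. Named were all members, the 3 companion genes highest and lowest among those passing in each comparison, and the 10 genes with the highest r to the member mean (each at its best probe set with an embryonic mean above 5). Of these, 1 companion gene is not reported here by name. Other genes were named after their values were seen. Cell marker lists came from general knowledge. Alternatives were other scalings, a filter on low values, any probe set of a gene, a replicate block of sex labels, the title prefix, and leaving out arrays. The hybridization control level as a term, and leaving out mixed arrays, were added after seeing the data.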

Additional observations from a re-analysis of the deposited data

How the results depend on the processing

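Of the members, 7 passed the stage test, 6 fell and 2 rose with day, and 2 rose and 2 fell from E10.5 to E19.5. Quantile renormalization left 3 in the stage test and 1 lower at E19.5. Median centring left 1 lower at E19.5, as did the sex label as a replicate block, whose other counts of members and companion genes stayed within 1.5 times. The labels tie no animals of different stages together. With the title prefix as a term 0 were higher and 0 lower at E19.5 (1 and 4 at an unadjusted p under 0.05 in limma). In that fit the prefix effect comes from E16.5 alone, so a loss of calls was to be foreseen. Within the arrays that carry the prefix 0 rose and 0 fell with day (0 and 2 unadjusted), and the slope per day of Nr4a3 was -0.0184. With the hybridization control level as a term 0 rose with day and 0 were higher at E19.5 (0 and 0 unadjusted), 4 were lower at E19.5, the slope per day of Nr4a2 was -0.133, the slope per day of Nr4a3 was -0.00386, E19.5 minus E10.5 of Egr3 was -0.0404 and E19.5 minus E10.5 of Nr4a3 was -0.143. The control level was itself higher at E19.5 than at E10.5, so a loss of rises under this term was to be foreseen. Without the mixed arrays from E12.5 on, 9 passed the stage test and the other member counts did not change. Leaving out each array gave 3 to 8 in the stage test, 0 to 2 higher and 1 to 3 lower at E19.5. In that contrast, without E10.5 mf2, E19.5 male or E19.5 mixed 0 were higher and 1 lower, without E10.5 mf1 1 was higher, and without E10.5 mf3 1 was lower. The sex comparison stayed at 0 under every alternative run, with 1 to 6 members at an unadjusted p under 0.05.

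For the companion genes, 12 fell with day under quantile renormalization, 22 rose and 11 fell under median centring, 24 rose by any probe set, 6 rose with the title prefix as a term, 0 rose and 0 fell within the arrays with the prefix (2 and 8 unadjusted), and 6 rose and 12 fell with the hybridization control level as a term. From E19.5 to young adult 17 rose and 4 fell under centring, 14 fell by any probe set and 5 fell with the control level. From young to old, 1 was lower by any probe set and 0 were higher in the 6 arrays of these stages alone (33 unadjusted). Leaving out each array gave 6 to 12 higher and 4 to 9 lower in young adult (4 lower without the E19.5 female or the young female array, 6 higher without E19.5 mixed), and 7 to 26 higher and 0 to 1 lower in old adult. Of the 30 relations to array controls 3 passed, and 6 did under quantile renormalization. The old male minus female differences of the 10 members kept their sign under both scalings. The cause of these changes was not tested.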
